A study of Homo sapiens with 6 samples.

Results

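The 27 genes described here make cholesterol or control its synthesis: 18 enzymes from acetyl-CoA units to cholesterol, 6 parts of the SREBP control system, and 3 genes of sterol transport and lipid synthesis that SREBP2 is known to act on. They were taken as a named list and matched by gene symbol in a count table of 58735 genes. All 27 were found there, and all 27 were among the 15768 genes with enough counts to be tested. The list was chosen with earlier results of these data known. Its shares, set beside those of all genes below, therefore describe the list and do not test it. The cells were ES2, a human ovarian cancer line that the labels call high-grade serous carcinoma. In the 3 control libraries the cells (genotype label WT) were transfected with 1 control small interfering RNA (siRNA, a short duplex that directs destruction of matching mRNA). In the 3 siUAP1 libraries (genotype label UAP1 knockdown) 2 siRNAs against UAP1 were listed, and the labels do not say whether these were pooled or which library received which. Both groups were grown in serum-containing medium, which was renewed 6 hours after transfection, and RNA was taken at 48 hours. UAP1 is the enzyme that makes UDP-N-acetylglucosamine, the sugar donor of many glycans.

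Cholesterol is built in the cytosol and endoplasmic reticulum from acetyl-CoA through mevalonate, isoprenoid diphosphates, squalene and lanosterol, and ends with a series of reductions, demethylations and double-bond shifts. When sterol in the endoplasmic reticulum is low, SCAP carries the SREBP2 precursor (gene SREBF2) to the Golgi, where site-1 protease (MBTPS1) and site-2 protease (MBTPS2) release its transcription factor domain. That domain raises transcription of most genes of the pathway, while INSIG1 and INSIG2 hold SCAP back when sterol is plentiful, and INSIG1 is itself a target of SREBP2. Cells growing in serum also take up cholesterol from lipoproteins, which leaves the lysosome through NPC1.

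SREBP2 is known to act at a short element near the start of its target genes, usually beside sites for the factors NF-Y and Sp1. Promoter windows (250 bases before and 50 after each annotated start, RefSeq, build GRCh38.p14) were matched for 24 of the 27 genes. ACAT2, FDFT1 and SQLE were not matched. The motifs searched on both strands were TCACNCCAC for the SREBP element, CCAAT for NF-Y, GGGCGG for Sp1 and CACGTG for the E-box, and a gene with several starts had several windows. Only SREBF2 held the exact element TCACNCCAC, 133 bases before its start, against 1.39% of the 27305 genes with a window. CCAAT was found for 16 of the 24 genes (66.7%, against 39.7% of all genes), GGGCGG for 21 (87.5% against 48.3%) and CACGTG for 4 (16.7% against 8.77%). With 1 mismatch allowed in the SREBP element, a search added after the values were seen, 10 of the 24 (41.7%) held it against 28.2% of all genes. The 27305 genes include genes that were not among the 15768 tested here, while all 24 were tested. The shares therefore cannot show that a motif is more frequent in the 24 than in other expressed genes. Each motif was scored on its own, so matches of different motifs may overlap. A match describes letters only, and a window without one says nothing about the factor.

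The SREBF2 stretch is shown because it carries the only exact element. Those of INSIG1, HMGCS1 and MSMO1, the genes with the largest rises, and of MBTPS2, the gene that fell, are shown for comparison and were picked with their values known. Each is part of the longest stretch before the start that no exon of a protein-coding gene covers, and reads 5′ to 3′ on the gene's own strand. Capitals mark TCACNCCAC and CCAAT on either strand (ATTGG is CCAAT read on the other strand). The SREBF2 stretch covers chr22:41832899-41833078 (plus strand), that of INSIG1 chr7:155297628-155297775 (plus), that of HMGCS1 chr5:43313513-43313662 (minus), that of MSMO1 chr4:165327443-165327622 (plus) and that of MBTPS2 chrX:21839437-21839616 (plus).
SREBF2: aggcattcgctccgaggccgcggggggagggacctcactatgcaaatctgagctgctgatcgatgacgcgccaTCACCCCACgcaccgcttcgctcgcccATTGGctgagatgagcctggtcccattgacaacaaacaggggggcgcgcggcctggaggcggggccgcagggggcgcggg
INSIG1: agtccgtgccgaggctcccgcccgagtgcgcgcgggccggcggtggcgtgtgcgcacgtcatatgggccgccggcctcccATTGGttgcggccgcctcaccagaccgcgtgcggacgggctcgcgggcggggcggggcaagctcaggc
HMGCS1: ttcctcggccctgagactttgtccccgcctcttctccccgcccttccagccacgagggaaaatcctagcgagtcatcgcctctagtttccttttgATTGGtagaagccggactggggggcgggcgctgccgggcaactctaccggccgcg
MSMO1: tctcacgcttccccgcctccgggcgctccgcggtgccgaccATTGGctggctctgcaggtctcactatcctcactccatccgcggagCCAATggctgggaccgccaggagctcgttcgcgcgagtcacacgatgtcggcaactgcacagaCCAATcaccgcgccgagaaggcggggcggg
MBTPS2: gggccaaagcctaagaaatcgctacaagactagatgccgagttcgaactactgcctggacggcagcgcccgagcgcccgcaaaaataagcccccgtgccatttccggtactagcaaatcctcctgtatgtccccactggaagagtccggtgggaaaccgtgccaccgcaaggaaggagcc
The exact element and a CCAAT match lie close together in the SREBF2 stretch. The stretch of MSMO1 holds 3 CCAAT matches, those of INSIG1 and HMGCS1 hold 1 each, and that of MBTPS2 holds none of either motif. The stretches differ in length and are shorter than the windows. Outside them, the windows hold a further CCAAT match for MSMO1 (34 bases before the start) and for HMGCS1 (100 bases before it). Of the 13 matched genes that rose in siUAP1 libraries in the comparison below, 0 held the exact SREBP element in a window. With 1 mismatch allowed, 7 of the 13 held it. CCAAT was found for 11, GGGCGG for 12 and CACGTG for 3 of the 13. The shares of all genes are given above, and a link between motifs and rises was not tested.

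The libraries held 21267240 to 25972582 counts, and every one of the 27 genes had at least 144 counts in each library. UAP1 (ENSG00000117143) checks the labels: its counts were 7341, 9081 and 10848 in control and 521, 608 and 642 in siUAP1 libraries (log2 fold change -4.03, SE 0.136, edgeR adjusted p = 6.12e-06). Of 11 markers listed for serous carcinoma, KRT7 (65.4 to 148 FPKM, a count scaled to gene length and library size) and KRT8 (17.9 to 54.4 FPKM) were abundant, PAX8 (0.0734 to 0.335) and WT1 (0.312 to 0.595) were low, and MUC16, FOLR1 and SOX17 were at 0 in every library. The summed list stood at 93.6 to 114 FPKM in control and 149 to 182 FPKM in siUAP1 libraries, so it moved with the siRNA groups, and its part in the results below was not tested. Hepatocyte and steroidogenic markers, which would stand for cell types with heavy sterol traffic, summed to at most 0.0415 and 0.011 FPKM, and leukocyte markers to at most 0.442 FPKM. Of the endothelial markers CDH5 was at 21.1 to 27.9 FPKM, with PECAM1 at most at 0.363 and VWF at most at 0.159. In bulk RNA, fewer cells that express a gene and less of its RNA per cell cannot be told apart.

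All steps of the pathway were transcribed in control cells, at very unequal levels. Mean levels over the 3 control libraries ran from 2.07 FPKM for CYP51A1 to 372 FPKM for DHCR7, with a median over the 27 genes of 15.5 FPKM. DHCR7, which reduces 7-dehydrocholesterol in the last step of the pathway, stood apart at 372 ± 111 FPKM (SD, n = 3), 24 times the median gene. In control libraries 1 to 3 it gave 499, 325 and 291 FPKM, where the 18 synthesis enzymes summed to 902.8, 602.4 and 599.5 FPKM. In control library 1 this was 55.2%, the highest share of the 3. INSIG1 came next at 55.8 ± 17.5 FPKM, followed by FDFT1, the squalene synthase, at 43.9 ± 8.78 FPKM, the methyl sterol oxidase MSMO1 at 37.6 ± 12.8 FPKM, the squalene epoxidase SQLE at 35.6 ± 3.66 FPKM and FDPS, the farnesyl diphosphate synthase, at 35.0 ± 6.32 FPKM (SD, n = 3 each). In this order each of the 5 differs from the next by less than the larger SD of the pair. The genes not named in this or the next paragraph lay between 7.18 FPKM (LPIN1) and 26.4 FPKM (IDI1). SREBF2 itself was at 31.2 ± 4.43 FPKM, above its escort SCAP at 14.1 ± 1.61 FPKM. INSIG1 was far above INSIG2, at 4.77 ± 0.710 FPKM, and MBTPS1, at 23.0 ± 1.68 FPKM, was above MBTPS2, at 3.81 ± 0.530 FPKM.

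At the low end, CYP51A1, the lanosterol demethylase, was at 2.07 ± 0.221 FPKM, MVK (mevalonate kinase) and the sterol reductase TM7SF2 both averaged 4.37 FPKM, SC5D (sterol desaturase) was at 4.79 ± 0.610 FPKM and HSD17B7 (a ketosteroid reductase) at 4.97 ± 2.20 FPKM (SD, n = 3). CYP51A1 shares 79.4% of its exon bases with a same-strand gene, AC000120.2, which is listed at 0 counts, so its low level is uncertain. HSD17B7 has a close copy, HSD17B7P2, with 301 counts over the 6 libraries (2.08 CPM), and reads could be split between them. With no statement on strand, reads of genes that overlap on opposite strands cannot be told apart. This touches ACAT2 (9.23% of its exon bases shared with TCP1, which is at 392.8 CPM), FDPS (18.6% with RUSC1-AS1), NPC1 (5.98% with RMC1), MVK (4.72% with MMAB), SREBF2 (3.71% with SREBF2-AS1) and STARD4 (2.18% with STARD4-AS1). MBTPS2 shares 12.2% of its exon bases with the same-strand gene YY2, at 1.255 CPM.

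**Figure D1:**
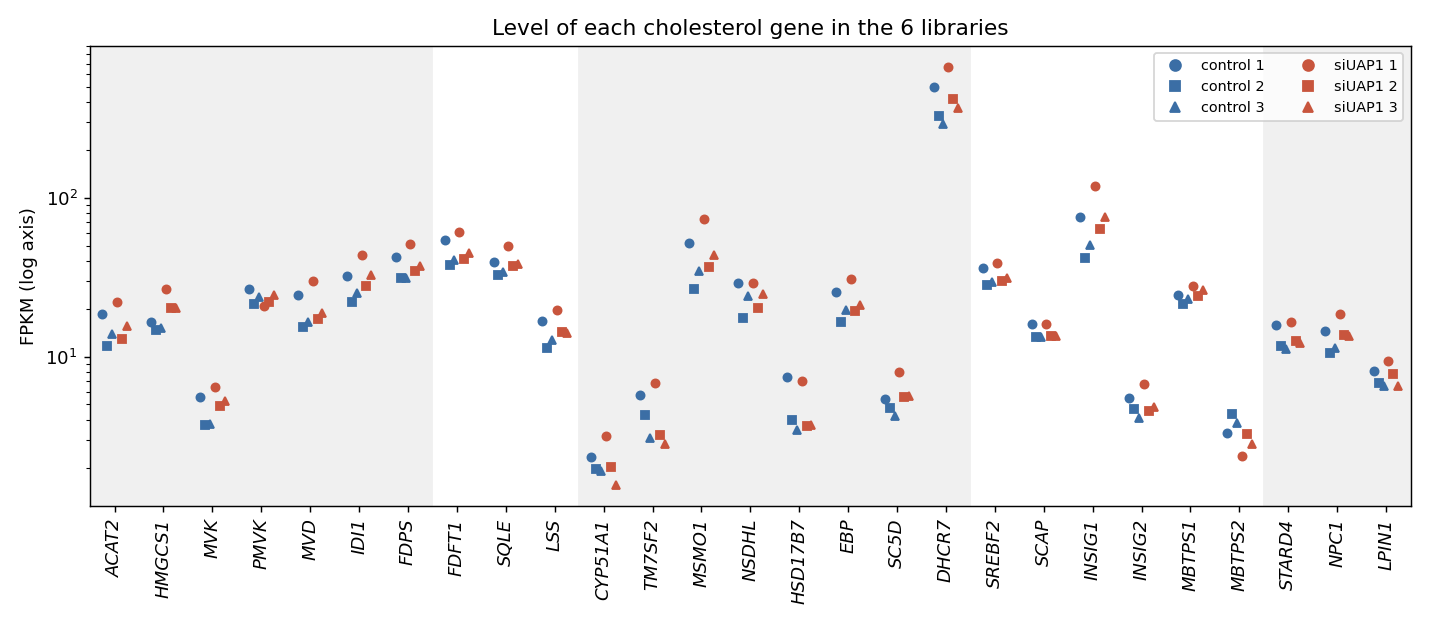
Level of each of the 27 genes in FPKM (log axis) in each of the 6 libraries, control in blue and siUAP1 in red, with circles, squares and triangles for replicate numbers 1, 2 and 3. Shading separates the mevalonate arm, squalene to lanosterol, lanosterol to cholesterol, SREBP control, and sterol transport and lipid targets. DHCR7 lies far above the rest, and the circles of number 1 are the highest points of their colour for most genes.

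The first comparison asked how these genes differed with UAP1 knocked down. Tested across the groups without regard to replicate number, none of the 27 passed an edgeR adjusted p of 0.05 (0.108% of all genes tested did), with adjusted p from 0.244 to 0.999. At an unadjusted p of 0.05, 3 were higher and 1 was lower (4.31% and 2.83% of all genes tested). At an adjusted p of 0.05 in the same comparison, DESeq2 called 1 of the 27 genes (HMGCS1) and limma-voom 0. Counts over all genes with other methods are given in the last section. Libraries with the same replicate number resembled each other across the groups: their deviations from the group means correlated at 0.552, 0.454 and 0.584. Compared within replicate numbers, so that each siUAP1 library is set against the control library of its number, 16 of the 27 genes rose and 1 fell, with 10 not called. Among all genes tested 9.07% rose and 7.14% fell in the same fit. The comparison without regard to replicate number was the planned main test, and this fit was its listed alternative. From here "rose" and "fell" refer to this fit with the replicate number as a block, and fold changes and p-values are from edgeR with Benjamini-Hochberg adjustment over all 15768 genes.

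The rises were small. The median log2 fold change of the 27 genes was 0.20, a 1.15-fold difference, against -0.00295 for all genes tested. Within pairs 1, 2 and 3 the median was 0.27, 0.17 and 0.16, and 24, 23 and 24 of the 27 genes were higher in the siUAP1 library of the pair (50.3%, 48.9% and 50.4% of all genes tested). In 21 of the 27 genes all 3 pairs were higher (23.4% of all genes tested), and in 1 all were lower (23.6%). The 2 groups did not overlap for 3 genes, HMGCS1, SC5D and MBTPS2 (11.1%, against 12.4% of all genes tested), and for the other genes the ranges of the groups overlapped. Leaving out replicate number 3 lowered the count to 10 risen and 1 fallen gene (4.61% of all genes then rose). Leaving out number 1 or number 2 gave 14 or 15 risen and 1 fallen (7.8% or 7.03% of all genes rose).

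**Figure D2:**
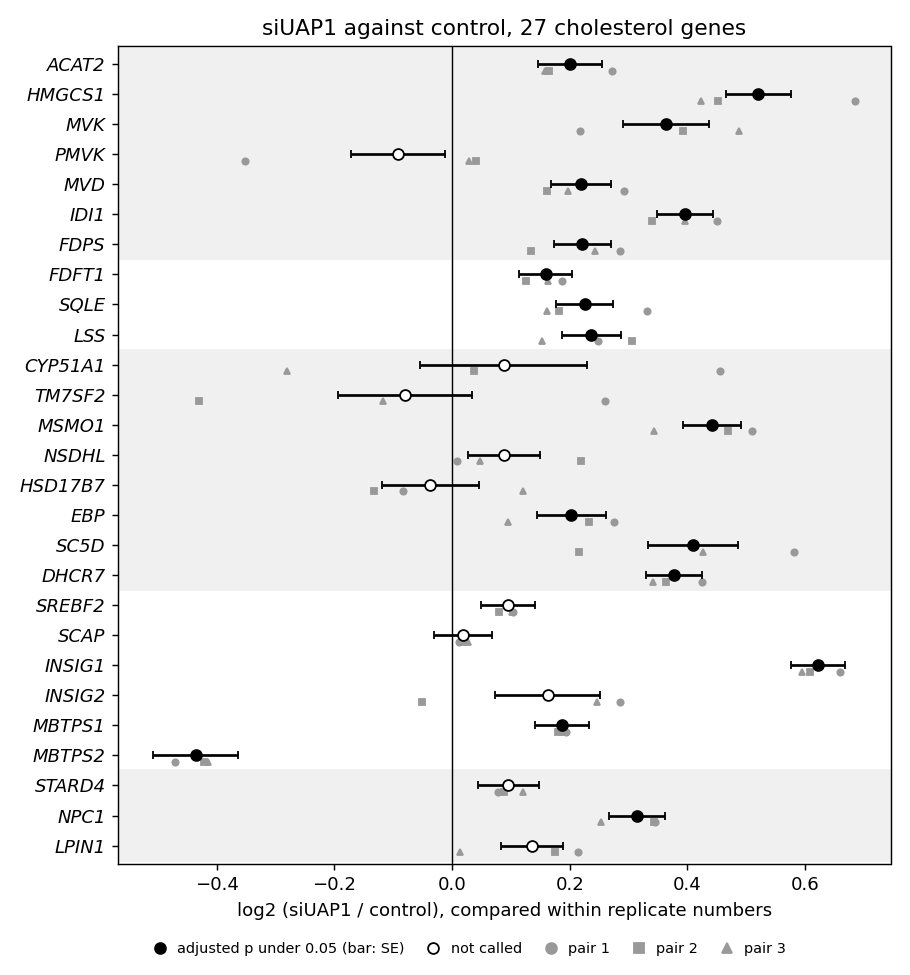
Log2 difference between siUAP1 and control for each gene, compared within replicate numbers. Black points with bars are the fitted values with SE, filled where the adjusted p was under 0.05, and grey symbols are the 3 single pairs. INSIG1 has the largest rise, MBTPS2 alone lies below 0 among the filled points, and the pairs of PMVK, CYP51A1, TM7SF2, HSD17B7 and INSIG2 fall on both sides of 0.

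In the mevalonate arm, which carries acetyl-CoA to farnesyl diphosphate, 6 of 7 genes rose and none fell (85.7% risen, beside 9.07% of all genes tested). HMGCS1, which condenses acetoacetyl-CoA to hydroxymethylglutaryl-CoA (GRCh38 chromosome 5, 43289395 to 43313512, minus strand), was at 78.6, 69.7 and 71.7 CPM (counts scaled to library size, not to gene length) in control libraries 1 to 3 and at 126.5, 95.4 and 96.2 CPM in siUAP1 libraries 1 to 3. Every siUAP1 library was above every control library, and siUAP1 library 1 was the highest. The log2 fold change was 0.52 (SE 0.0557, adjusted p = 1.85e-07), a 1.43-fold rise. IDI1, the isopentenyl diphosphate isomerase, read 140.2, 96.8 and 109.0 CPM in control and 191.5, 122.6 and 143.4 CPM in siUAP1 libraries. Control library 1 lay above siUAP1 library 2, so the groups overlapped, while each pair was higher by 0.34 to 0.45 on the log2 scale (log2 fold change 0.40, SE 0.0481, adjusted p = 1.40e-06). MVK, which phosphorylates mevalonate, had 36.5, 24.4 and 24.6 CPM in control and 42.4, 32.1 and 34.5 CPM in siUAP1 libraries. Here control library 1 exceeded siUAP1 libraries 2 and 3 (log2 fold change 0.36, SE 0.0734, adjusted p = 0.000896).

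The other risen genes of the arm moved less. MVD, the mevalonate diphosphate decarboxylase, had a log2 fold change of 0.22 (adjusted p = 0.00343), FDPS one of 0.22 (adjusted p = 0.00209), and ACAT2, the thiolase that opens the pathway, one of 0.20 (adjusted p = 0.0114). PMVK, the kinase between MVK and MVD, was not called: it was at 34.4, 27.9 and 30.8 CPM in control and 26.96, 28.7 and 31.4 CPM in siUAP1 libraries. Its pair 1 differed by -0.35 on the log2 scale and the other pairs by 0.04 and 0.03 (log2 fold change -0.09, SE 0.0804, adjusted p = 0.509). The calls of ACAT2, MVK, MVD and FDPS were lost without replicate number 3 (adjusted p from 0.0516 to 0.0722), that of ACAT2 also without number 1 (0.0855) and under DESeq2 with the block (0.0908).

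From squalene to lanosterol all 3 genes rose (beside 9.07% of all genes tested). LSS, the lanosterol synthase, had a log2 fold change of 0.24 (adjusted p = 0.00148), with 121.5, 83.6 and 92.7 CPM in control and 144.3, 103.4 and 103.1 CPM in siUAP1 libraries. SQLE, an oxygen-dependent and often rate-limiting step, went from 172.0, 142.7 and 148.5 CPM to 216.5, 161.8 and 166.0 CPM (log2 fold change 0.23, adjusted p = 0.00180). FDFT1, the first enzyme committed to sterols, changed least of the 3, with a log2 fold change of 0.16 (adjusted p = 0.0171), and its call was lost without replicate number 3 (adjusted p = 0.177). In each of these genes control library 1 was above siUAP1 libraries 2 and 3.

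From lanosterol to cholesterol 4 of 8 genes rose and none fell (50% risen, beside 9.07% of all genes tested). MSMO1, the oxidase of the demethylation at carbon 4, was at 150.2, 77.5 and 100.9 CPM in control and 213.8, 107.3 and 128.0 CPM in siUAP1 libraries. Each pair was higher, by 0.51, 0.47 and 0.34 on the log2 scale, although control library 1 exceeded siUAP1 libraries 2 and 3 (log2 fold change 0.44, SE 0.0497, adjusted p = 4.37e-07). DHCR7, the most abundant enzyme of the pathway (GRCh38 chromosome 11, 71428193 to 71452868, minus strand), read 2087, 1368 and 1216 CPM in control and 2802, 1761 and 1541 CPM in siUAP1 libraries. The pairs lay close together, between 0.34 and 0.43 on the log2 scale, and the fitted rise was 1.30-fold (log2 fold change 0.38, SE 0.0474, adjusted p = 2.21e-06). SC5D, which acts just before DHCR7, had 30.3, 26.8 and 23.4 CPM in control and 45.4, 31.1 and 31.5 CPM in siUAP1 libraries, without overlap (log2 fold change 0.41, SE 0.0769, adjusted p = 0.000420). EBP, the sterol isomerase, rose by 0.20 (SE 0.0590, adjusted p = 0.0187), a call lost without replicate number 1 (adjusted p = 0.119), without number 2 (0.0876) and under DESeq2 with the block (0.141).

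The other 4 genes of this stretch had no common direction. NSDHL and HSD17B7, which work with MSMO1 on the methyl groups at carbon 4, had log2 fold changes of 0.09 (SE 0.0615, adjusted p = 0.382) and -0.04 (SE 0.0827, adjusted p = 0.828). CYP51A1 had 8.36, 7.15 and 6.88 CPM in control and 11.5, 7.34 and 5.65 CPM in siUAP1 libraries, with pairs at 0.46, 0.04 and -0.28 on the log2 scale. TM7SF2, the reductase after CYP51A1, had pairs at 0.26, -0.43 and -0.12. Their fitted log2 fold changes, 0.09 for CYP51A1 (SE 0.142, adjusted p = 0.755) and -0.08 for TM7SF2 (SE 0.114, adjusted p = 0.712), carried the widest errors of the 27 genes.

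Summed over the 18 synthesis enzymes, of which 13 rose and none fell (edgeR with the block; 13 higher and 0 lower at an unadjusted p of 0.05, beside 14.7% and 13.4% of all genes tested), control libraries 1 to 3 held 902.8, 602.4 and 599.5 FPKM and siUAP1 libraries 1156, 744.5 and 721.7 FPKM. The siUAP1 library of each number was above its control by 1.28, 1.24 and 1.2 times, and control library 1 was above siUAP1 libraries 2 and 3. DHCR7 weighs most in these sums.

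Of the 6 SREBP control genes 2 rose, 1 fell and 3 were not called. These are 33.3% risen and 16.7% fallen, beside 9.07% and 7.14% of all genes tested. In a list of 6, 1 fallen gene is too few to set against that share. INSIG1, which retains SCAP in the endoplasmic reticulum and is a well-known SREBP2 target (ENSG00000186480, GRCh38 chromosome 7, 155297776 to 155310235, plus strand), had the largest rise of the 27. Control libraries read 276.5, 153.8 and 185.2 CPM and siUAP1 libraries 436.9, 234.6 and 279.8 CPM. Control library 1 lay above siUAP1 library 2 and just below siUAP1 library 3, but the pairs were all close to 0.62, at 0.66, 0.61 and 0.60 on the log2 scale (SE 0.0459, adjusted p = 3.80e-10), a 1.54-fold rise. INSIG2, its paralogue, had pairs at 0.29, -0.05 and 0.25 and was not called (log2 fold change 0.16, SE 0.0897, adjusted p = 0.249). The difference between INSIG1 and INSIG2 in response was not tested.

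SREBF2, which encodes the precursor of the factor, was at 275.9, 215.1 and 222.0 CPM in control and 296.5, 227.4 and 238.3 CPM in siUAP1 libraries. All 3 pairs were higher, by 0.08 to 0.10 on the log2 scale, and the difference did not pass the test (log2 fold change 0.10, SE 0.0453, adjusted p = 0.169). SCAP was nearly level, with pairs at 0.01, 0.02 and 0.03 (log2 fold change 0.02, SE 0.0498, adjusted p = 0.856). The proteases that cut SREBP2 in turn went apart. MBTPS1, which cuts first, had 253.5, 220.4 and 237.7 CPM in control and 290.0, 249.7 and 270.6 CPM in siUAP1 libraries, with pairs at 0.19, 0.18 and 0.19 (log2 fold change 0.19, SE 0.0453, adjusted p = 0.00489), a call lost without replicate number 3 (adjusted p = 0.0998).

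MBTPS2, which makes the second cut inside the membrane (ENSG00000012174, GRCh38 chromosome X, 21839636 to 21885424, plus strand), was the only gene of the 27 that fell. That is 3.7% of the list, not above the 7.14% of all genes tested that fell. It was at 29.5, 39.3 and 34.1 CPM in control and 21.3, 29.3 and 25.5 CPM in siUAP1 libraries. All siUAP1 libraries lay below all control libraries, narrowly so for siUAP1 library 2 against control library 1, and the pairs differed by -0.47, -0.42 and -0.41 on the log2 scale (log2 fold change -0.44, SE 0.0721, adjusted p = 9.77e-05), which is 0.740 of control. The fall of MBTPS2 was called with any one replicate number left out and with RLE scaling, library totals, DESeq2 and limma-voom in the fit with the block.

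**Figure D3:**
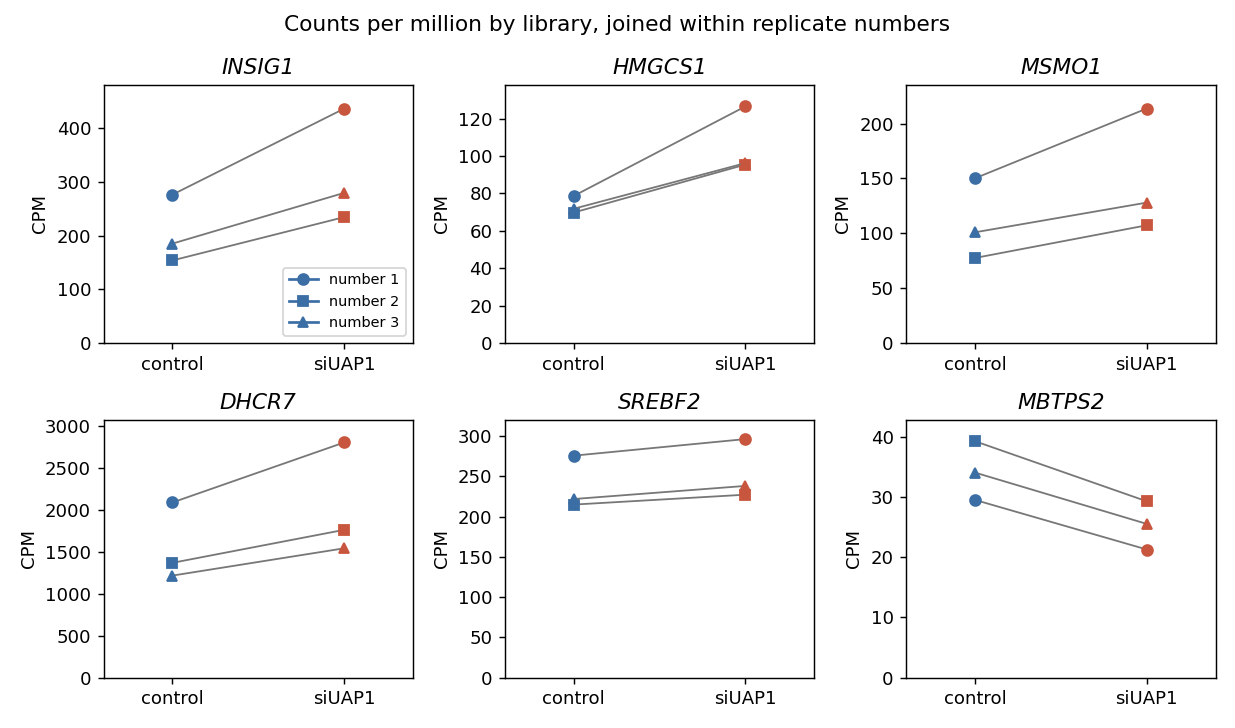
CPM of 6 genes in control and siUAP1 libraries, with a line joining the libraries of the same replicate number (axes start at 0). The lines of INSIG1, HMGCS1, MSMO1 and DHCR7 rise, those of SREBF2 are nearly level, those of MBTPS2 fall, and number 1 is the highest line in every panel except that of MBTPS2, where it is the lowest.

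Among the 3 genes of sterol transport and lipid synthesis, NPC1, which moves cholesterol out of the lysosome, rose. Its control libraries were at 148.7, 108.8 and 114.3 CPM and its siUAP1 libraries at 189.0, 138.1 and 136.3 CPM, with control library 1 above siUAP1 libraries 2 and 3 (log2 fold change 0.31, SE 0.0478, adjusted p = 3.15e-05). STARD4, which carries cholesterol between membranes, had pairs at 0.08, 0.09 and 0.12 and was not called (log2 fold change 0.10, SE 0.0519, adjusted p = 0.240). LPIN1, a phosphatidate phosphatase of glycerolipid synthesis, had 97.4, 82.0 and 77.9 CPM in control and 113.0, 92.6 and 78.6 CPM in siUAP1 libraries (log2 fold change 0.14, SE 0.0530, adjusted p = 0.0847).

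The second comparison asked how the genes differed between replicate numbers, each of which holds 1 control and 1 siUAP1 library. The labels do not say what the numbers stand for. The library names carry a code that the control and siUAP1 library of a number share. It begins alike for numbers 2 and 3 and differently for number 1, and its meaning is not given. In a fit with siRNA group and number, 26 of the 27 genes differed between numbers (96.3%, against 45.9% of all genes tested); PMVK did not pass (adjusted p = 0.443). Number 1 was the high one: 25 of the 27 had their highest mean there (34.9% of all genes tested did), the exceptions being MBTPS2 (number 2) and PMVK (number 3). Both libraries of number 1 were above all 4 others for 20 of the 27 genes (74.1%, against 15.1% of all genes tested), a count made after the pattern was seen. The median log2 difference of number 1 from the mean of numbers 2 and 3 was 0.46, or 1.37-fold, against 0.00273 for all genes tested. The 27 genes together took 0.497%, 0.352% and 0.339% of counts in control libraries 1 to 3 and 0.639%, 0.423% and 0.408% in siUAP1 libraries 1 to 3. Mitochondrial transcripts did not follow this order, at 4.45% and 4.72% of counts in number 1, 6.02% and 5.64% in number 2, and 4.23% and 4.79% in number 3.

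The size of this difference varied with the step. HSD17B7 had mean levels of 35.0, 18.5 and 17.2 CPM in numbers 1 to 3, a 2.03-fold range (adjusted p = 9.08e-09). TM7SF2 stood at 21.7, 12.9 and 10.2 CPM (2.14-fold, adjusted p = 1.92e-06), so both genes differed widely between numbers while neither was called between siRNA groups. MSMO1 was at 182.3, 92.5 and 114.5 CPM (1.97-fold, adjusted p = 1.49e-11), INSIG1 at 357.2, 194.4 and 232.7 CPM (1.83-fold, adjusted p = 2.22e-11) and DHCR7 at 2448, 1567 and 1380 CPM (1.77-fold, adjusted p = 8.18e-11). HMGCS1 differed less, at 102.7, 82.7 and 84.0 CPM (1.23-fold, adjusted p = 0.00127), although it had the second largest rise with siUAP1. SREBF2 was at 286.6, 221.5 and 230.4 CPM (1.29-fold, adjusted p = 1.16e-05). MBTPS2 ran the other way, lowest in number 1 at 25.4 CPM against 34.3 and 29.8 CPM (adjusted p = 0.00119).

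Numbers 2 and 3 lay closer to each other. The median size of the difference between them, whatever its sign, was 0.11 on the log2 scale over the 27 genes, beside 0.49 between numbers 1 and 2 and 0.44 between numbers 1 and 3. Over all genes tested these were 0.19, 0.20 and 0.25. Without number 1, 8 of the 27 differed between the remaining numbers, beside 29.2% of all genes tested, so that share is near the background. Across the 27 genes the excess in number 1 and the difference with siUAP1 had a Pearson r of 0.412 and a Spearman rho of 0.226. These are correlations across genes from the same 6 libraries. MBTPS2 alone was below 0 on both measures (-0.33 and -0.44), and the correlation without it was not computed. HSD17B7 (0.97 and -0.04) and TM7SF2 (0.93 and -0.08) had the largest excess in number 1 and did not rise with siUAP1.

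**Figure D4:**
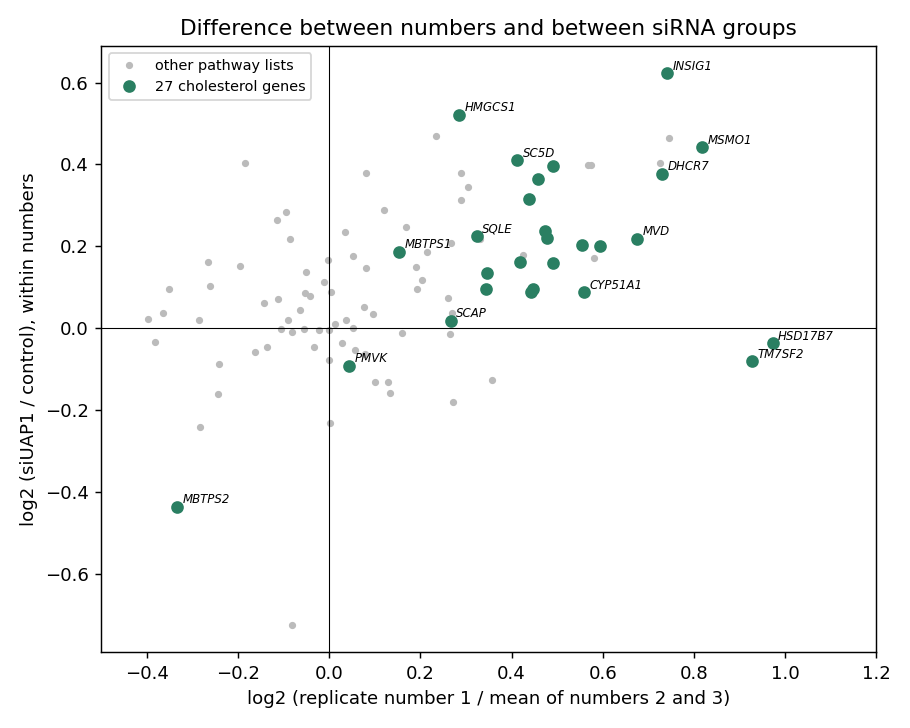
Log2 difference of replicate number 1 from the mean of numbers 2 and 3 (horizontal) against the log2 difference between siUAP1 and control within numbers (vertical), for the 27 genes (green, some named) and the genes of the other lists (grey). Green points lie to the right of 0 except MBTPS2, and most lie above 0, with HSD17B7, TM7SF2 and PMVK just below it.

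Neighbouring pathways were described from 5 further lists. In the same fit 9.07% of all genes tested rose and 7.14% fell. At an unadjusted p of 0.05, 14.7% were higher and 13.4% lower. Fatty acid synthesis and SREBP1 targets gave 8 risen and 0 fallen of 12 tested (9 higher and 1 lower at an unadjusted p of 0.05), and all 12 had their highest mean in number 1, as did 34.9% of all genes tested. FASN, the fatty acid synthase, was at 1552, 1116 and 867.4 CPM in control and 2187, 1536 and 1035 CPM in siUAP1 libraries (log2 fold change 0.40, adjusted p = 2.46e-06). ME1, which supplies NADPH, rose by 0.47 (adjusted p = 4.45e-07), and the desaturases FADS2 and FADS1, whose exons overlap on opposite strands, by 0.40 and 0.29. Among other SREBP control and sterol-sensing degradation genes, 5 of 14 rose and 0 fell (6 higher and 1 lower at an unadjusted p of 0.05). They included ERLIN1 (log2 fold change 0.40, adjusted p = 1.71e-06), the ubiquitin ligase RNF145 (0.38), PGRMC1 (0.26) and SREBF1 (0.28, adjusted p = 0.000207), which encodes the SREBP1 precursors and overlaps RAI1 on the opposite strand. SREBF1 was highest in number 2, at 112.1 CPM in the control and 137.6 CPM in the siUAP1 library, unlike SREBF2.

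Sterol transport, storage and efflux genes gave 4 risen and 1 fallen of 19 (21.1% and 5.26%, beside 9.07% and 7.14% of all genes tested). NCEH1, a hydrolase of cholesterol esters, fell from 94.2, 87.9 and 109.2 CPM to 55.8, 60.7 and 59.3 CPM (log2 fold change -0.72, SE 0.0595, adjusted p = 2.38e-09; adjusted p = 0.0548 without the block), a larger change than in any of the 27 genes. The lipoprotein receptor SCARB1 rose by 0.38 (adjusted p = 1.81e-06), LIPA, the lysosomal lipase that frees cholesterol for NPC1, by 0.31 (adjusted p = 1.59e-05), and NR1H3, an oxysterol receptor that overlaps ACP2, by 0.40 (adjusted p = 0.0147). The call of NR1H3 was lost with DESeq2 and the block (adjusted p = 0.136), without number 2 (0.0689) and without number 3 (0.095). Of other sterol-pathway genes 4 of 13 rose and 1 fell (30.8% and 7.69%, beside 9.07% and 7.14% of all genes tested). In both lists the share of fallen genes is near that of all genes. ALDOC (0.47), RDH11 (0.22) and PCYT2 (0.18) were among the risen, and EBPL, a relative of EBP, fell by 0.23 on the log2 scale (adjusted p = 0.0107). The call of EBPL was lost with DESeq2 and the block (adjusted p = 0.0755), without number 1 (0.0537) and without number 2 (0.0717). That of PCYT2 was lost with DESeq2 (adjusted p = 0.173), without number 1 (0.234) and without number 3 (0.13), and that of RDH11 without number 3 (0.0509). The isoprenoid branch, which draws on the same farnesyl diphosphate for prenylation, dolichol and ubiquinone, gave 0 risen and 1 fallen of 18 (0 higher and 2 lower at an unadjusted p of 0.05), shares of fallen and lower genes that are not above the 7.14% and 13.4% of all genes tested. That gene was RABGGTB (log2 fold change -0.24, adjusted p = 0.000853), and RCE1 was next by p (log2 fold change -0.18, adjusted p = 0.147). The median log2 fold change of that list was -0.03, beside 0.22 for the mevalonate arm that feeds it and 0.21 for the fatty acid list.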

How the data were processed

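The authors deposited raw counts per gene (whole numbers, 1 column per library) and FPKM made from counts, gene length and library total. Per the submitters' processing notes the build was GRCh38.p12 and DESeq2 was used; which aligner and counter were run, and whether strand was used, is not given in the sources used here. Gene positions are those of the deposited table, and 58724 of 58735 genes have the same start and end in GENCODE 29, from which exon overlaps were taken. Samples were grouped by title. Nothing says that replicates were separate cultures, so p-values measure only how far these libraries vary, possibly for technical reasons. Counts were fitted with edgeR 4.0.16 (R 4.3.3): TMM scaling, filterByExpr (minimum count 10), quasi-likelihood test, Benjamini-Hochberg adjustment, threshold 0.05; the script was tested on simulated data. CPM are TMM-scaled, and single pairs use log CPM with a prior count of 2. FPKM gave levels. The titles share replicate numbers, and these were taken to pair the libraries because every same-number correlation of deviations passed 0.1. The blocked fit adds the number. From each other list the text names up to 4 called genes of smallest p, and 2 genes where fewer than 2 were called. The rule for promoters was the smallest p among genes with the SREBP element, which left SREBF2 alone. Members and lists were chosen with earlier results of these data known. Alternatives were other scalings, filters and pseudocounts, DESeq2 1.42.0, limma 3.58.1 and leaving out libraries.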

Additional observations from a re-analysis of the deposited data

How the results depend on the processing

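The count of members called between siRNA groups depends on the replicate block. It was 0 without the block and 17 with it under edgeR, with RLE scaling, with library totals and with limma-voom, and 15 with DESeq2; with number 1, 2 or 3 left out of the blocked fit it was 15, 16 or 11. Without the block it was 3 with no filter (HMGCS1, MSMO1 and INSIG1) and 1 with DESeq2 (HMGCS1). Genes called numbered 17 without and 2556 with the block (2539 with RLE scaling, 2587 with library totals, 1311 with DESeq2, 2545 with limma-voom, 2204, 1987 and 1195 without number 1, 2 or 3). Without the block they numbered 273 with no filter, 165 with DESeq2, 1 to 3 with a library left out, and 2, 3 and 1 with limma on log2(FPKM + 1), log2(FPKM + 0.1) and log2(FPKM + 1) with no filter on FPKM. Members of the other lists called numbered 0 without the block, 1 with library totals, 2 with no filter, 1 at a mean CPM of at least 5 and 1 with DESeq2. With the block they numbered 24 (24 with RLE scaling, 25 with library totals, 19 with DESeq2, 25 with limma-voom, 22, 19 and 17 without number 1, 2 or 3). The median log2 fold change of the members, 0.21 without the block, ran from -0.0178 without siUAP1 replicate 1 to 0.369 without control replicate 1. For replicate numbers, genes called fell from 7232 to 4227 with DESeq2 and 1487 with no group term, and members from 26 to 11 with no group term; without number 1 these were 4637 and 8, and genes called were 5935 without number 2 and 3509 without number 3. Without the block, 13 members, none of them called in that fit, changed sign when 1 library was left out. Their log2 fold changes ran from -0.0369 to 0.407 for ACAT2, -0.0551 to 0.464 for MVD, -0.0276 to 0.334 for FDFT1, -0.198 to 0.337 for CYP51A1, -0.535 to 0.215 for TM7SF2, -0.101 to 0.256 for NSDHL, -0.427 to 0.369 for HSD17B7, -0.0215 to 0.391 for EBP, -0.0292 to 0.215 for SREBF2, -0.0732 to 0.113 for SCAP, -0.0178 to 0.284 for INSIG2, -0.0651 to 0.262 for STARD4, and -0.0013 to 0.263 for LPIN1. In the blocked fit, 4 uncalled members changed sign: PMVK (0.0354) and CYP51A1 (-0.116) without number 1, and TM7SF2 (0.0911) and HSD17B7 (0.00743) without number 2. The other members kept their direction in the alternatives run. The fall of UAP1 kept its direction and its call in all of them. The cause of these shifts was not tested. The lowest count of a member in a library, 144, limits what can be seen for CYP51A1.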
